A study of Mus musculus with 3 samples.

Results

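Cycling T cells of the mouse spleen were the barcodes with T cell transcripts that also held transcripts of late S, G2 and M phase. A barcode was a member if it held at least 2 UMIs (unique molecular identifiers, each counting 1 captured RNA molecule) of Cd3d, Cd3e and Cd3g together. It also held no UMI of Cd79a or Cd79b, at most 2 UMIs of Hbb-bs, and at least 1 UMI of at least 2 of Mki67, Top2a, Cdk1, Ube2c, Cenpf and Nusap1. The rule was applied to barcodes with at least 500 UMIs, at least 200 genes and under 10% mitochondrial UMIs. It found 588 cells among 16755 T cells and 35739 barcodes in all. There were 164 of 6608 T cells in IR_HSO, 386 of 7768 in IR and 38 of 2379 in control. The "other T cells" below are the 5817, 6532 and 2145 T cells of the same libraries with no UMI of any of the 6 genes.

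The 3 libraries were 10x Genomics single-cell libraries of ground spleens from WT mice, with 1 library per group. IR_HSO mice received 8.5 Gy and HSO, which the series title gives as hemp seed oil. IR mice received 8.5 Gy and what the labels call a "colvent control", and control mice were not irradiated. The labels give neither the time after irradiation, the dose or route of HSO, nor the number of mice in a library. With 1 library per group no difference between groups could be tested. The 95% intervals given with shares, levels and ratios cover counting error only.

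Peripheral T cells mostly rest in G0 and enter the cell cycle on contact with antigen, on cytokine signals or when the T cell pool is small. Ionising radiation breaks DNA and activates the transcription factor p53, which induces the CDK inhibitor Cdkn1a (p21) and holds damaged cells before S phase or mitosis, or induces death genes such as Bax and Bbc3. Lymphocytes are among the most radiation-sensitive cells of the body, and cells that survive may divide to refill the spleen.

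The members were deep cells. Their median was 7486 UMIs in IR_HSO, 7646 in IR and 10084 in control, against 3404, 3347 and 5154 in other T cells. The highest Scrublet scores, which mark likely doublets (barcodes of several cells), fell on 17.7%, 19.9% and 15.8% of members. In other T cells they fell on 10%, 12% and 2.24%, so the excess was largest in control. Without these barcodes the members made up 2.29%, 4.56% and 1.38% of T cells. Summed over members, the libraries held 1369893, 3145108 and 380064 UMIs, so control values are the least precise. IR_HSO and IR shared 54 barcode sequences, IR_HSO and control 34, and IR and control 44. Of the members, 1 in IR_HSO, 3 in IR and 0 in control carried a shared barcode. A list of 8 genes of pancreatic acinar cells, all detected in both irradiated libraries, summed to 207 CPM in IR_HSO members (CPM being the UMIs of a gene scaled to one common total per group), 457 CPM in IR members and 0 in control members. Summed over other T cells it came to 792, 2469 and 0.531 CPM. Its part in the results was not tested.

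The members were checked against markers of T cells and of other cells. The 7 T cell markers, of which the rule used Cd3d, Cd3e and Cd3g, summed to 3930 CPM in IR_HSO, 5014 in IR and 5312 in control members, against 4189, 5258 and 5339 CPM in other T cells, and all 7 were detected in each library. Of those the rule did not use, Trac, the constant region of the alpha chain, had 474 CPM in IR_HSO, 610 in IR and 584 in control members, and Trbc2, of the beta chain, 1092, 1649 and 1718 CPM. Of the B cell markers, Cd79a, Cd79b and Pax5 were at 0 in all 3 libraries, the first pair by the rule. The B cell list summed to 872, 609 and 408 CPM in members, against 93451, 78228 and 12550 CPM in B cells. Ighm made up nearly all of this sum in members, at 871, 608 and 389 CPM. In other T cells Ighm had 978, 733 and 349 CPM. The erythroid list summed to 67.2, 47.7 and 100 CPM in members, against 28.5, 30.2 and 85.1 CPM in other T cells. In control members most of it was Hbb-bs (57.9 CPM, in 18 of 38 cells) and Hba-a1 (21 CPM), and in IR_HSO and IR members Car2 (65 and 47.4 CPM). The dendritic cell list summed to 18.2, 14.3 and 34.2 CPM in members, higher than the 8.16, 9.97 and 14.6 CPM of other T cells, and Itgax made up most of it. The myeloid list summed to 334, 402 and 326 CPM, against 414, 400 and 290 CPM in other T cells. Its member Fcer1g had 199, 192 and 86.8 CPM. Without members that had a UMI of Ncr1 or Klrb1c, Fcer1g had 32.4, 22.6 and 86.8 CPM. Without the members rich in MHC class II, Fcer1g had 8.96 CPM in control. The part of these genes in the results was not tested.

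Markers of NK cells differed between the libraries. Ncr1, an activating receptor typical of NK cells, had a UMI in 26 of 164 members in IR_HSO, 73 of 386 in IR and 0 of 38 in control. Klrb1c (NK1.1) had one in 39, 94 and 0. The 5 NK markers summed to 823 CPM in IR_HSO, 998 in IR and 145 in control members, against 9980, 13556 and 13919 CPM in NK cells. Members without either gene numbered 119, 268 and 38, and for results that lost their call or moved by more than 1.5 times without the NK-gene-positive members the value without them is given too. T cells that carry NK receptors and NK cells that carry CD3 transcripts could not be told apart by this rule.

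In control, 3 of 38 members held most of the MHC class II transcripts. H2-Aa, H2-Ab1, H2-Eb1 and Cd74 together reached up to 661 UMIs in these cells, and 7 in the highest of the other 35. Members above 50 such UMIs were 1 in IR_HSO, 2 in IR and 3 in control, and held 33.7%, 53.9% and 93.9% of the members' class II UMIs. With all members, Cd74 (the invariant chain) had 107 CPM in IR_HSO, 72.2 in IR and 1802 in control. Without the 3 cells it had 140 CPM in control. Results that rest on them are marked as such.

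The 6 genes of the rule encode the proliferation antigen Ki-67 (Mki67), topoisomerase II alpha (Top2a), the mitotic kinase CDK1, the ubiquitin-conjugating enzyme of the anaphase-promoting complex (Ube2c), a kinetochore protein (Cenpf) and a spindle protein (Nusap1). They chose the cells, so their levels are a description only. Mki67 had a UMI in 86.6% of members in IR_HSO, 90.4% in IR and 76.3% in control, at 980, 1184 and 571 CPM. Top2a was found in 80.5%, 91.7% and 63.2% of members, at 749, 1277 and 392 CPM. Cdk1 was found in 43.9%, 53.1% and 26.3%, and Nusap1 in 51.2%, 54.1% and 18.4%. Ube2c was found in 40.2%, 44.6% and 55.3%, and Cenpf in 49.4%, 55.2% and 52.6%. The summed level of each of the 6 genes was highest in IR, between in IR_HSO and lowest in control.

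Genes of G2 and M phase often share 2 kinds of promoter element, a CCAAT box bound by NF-Y and a cell cycle genes homology region (CHR) bound by the MuvB complexes. The 250 bases before the RefSeq start (GRCm38.p6) were searched on both strands for CCAAT, which reads ATTGG on the other strand. They were searched in the same way for the CHR letters TTTGAA, with TTCAAA as the same site read on the other strand, and for TTTAAA, which reads alike on both. All 6 genes matched the table. The windows of 5 of them held at least 2 CCAAT letters, and the windows of 5 held at least 1 CHR. Neither was found in the window of Nusap1. Of 32851 promoter windows, 10.1% held at least 2 CCAAT, 25.2% held a CHR and 8.78% held a CCAAT and a CHR. The last 150 bases before the start of 3 of the genes that chose the members are printed 5′ to 3′ with these letters in capitals, to show how the elements lie. They are Top2a (chr11:99024190-99024339, minus strand), Cdk1 (chr10:69352913-69353062, minus strand) and Ube2c (chr2:164769779-164769928, plus strand). A match describes letters only and shows no binding.
Top2a: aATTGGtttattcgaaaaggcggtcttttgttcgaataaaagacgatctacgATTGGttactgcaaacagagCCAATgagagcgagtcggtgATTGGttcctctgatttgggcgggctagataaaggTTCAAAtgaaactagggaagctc
Cdk1: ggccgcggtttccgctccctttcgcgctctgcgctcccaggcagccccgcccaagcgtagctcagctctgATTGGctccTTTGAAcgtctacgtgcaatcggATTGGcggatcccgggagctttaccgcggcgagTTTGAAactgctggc
Ube2c: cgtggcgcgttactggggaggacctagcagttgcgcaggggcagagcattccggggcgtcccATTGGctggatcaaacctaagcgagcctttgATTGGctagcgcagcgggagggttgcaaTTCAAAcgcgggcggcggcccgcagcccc

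A larger share of T cells was cycling in IR than in either other library. Members made up 2.48% of T cells in IR_HSO (exact binomial interval 2.12 to 2.89), 4.97% in IR (4.50 to 5.48) and 1.60% in control (1.13 to 2.19). The share in IR was 3.11 times that in control (interval 2.23 to 4.46), and the share in IR_HSO was 0.499 times that in IR (0.413 to 0.601). These shares depend on depth, and control T cells were the deepest. When each T cell was thinned to 2000 UMIs and the rule applied again, 662, 1089 and 79 shallower T cells were left out. The shares were then 1.60% in IR_HSO, 3.89% in IR and 0.696% in control, and the ratio of IR to control was 5.60 (3.38 to 9.94). The ratio of IR_HSO to IR was 0.410 (0.321 to 0.521).

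The difference between IR_HSO and control was less firm. The share in IR_HSO was 1.55 times that in control (interval 1.09 to 2.27), and 2.30 times when thinned to 2000 UMIs (1.34 to 4.18). Without the limit on Cd79a and Cd79b the ratio was 1.17 (0.895 to 1.55), and without NK-gene-positive T cells it was 1.37 (0.947 to 2.04), and both intervals include 1. The limit on Cd79a and Cd79b removed 14 of 178 cycling cells with CD3 in IR_HSO (7.87%), 54 of 440 in IR (12.3%) and 48 of 87 in control (55.2%). Control held 3729 B cells, against 168 in IR_HSO and 236 in IR.

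The cycling part of the rule was also met by other lymphocytes. Among NK cells, 1.93% met it in IR_HSO (1.20 to 2.93), 3.41% in IR (2.53 to 4.50) and 0.431% in control (0.0109 to 2.38, 1 of 232 cells). Among B cells the shares were 4.17% in IR_HSO (7 of 168 cells), 2.12% in IR (5 of 236) and 1.53% in control (57 of 3729). The intervals of the B cell shares overlapped. These shares were not thinned, and the median B cell held 8736 UMIs in IR_HSO, 7626 in IR and 3676 in control. The median NK cell held 3649, 2994 and 3883 UMIs. B cells also differed in kind, with the plasma cell gene Jchain at 32461, 38971 and 923 CPM and the B cell gene Ms4a1 at 92.6, 194 and 1380 CPM. The B cell shares thus compare unlike cells at unlike depth.

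**Figure D1:**
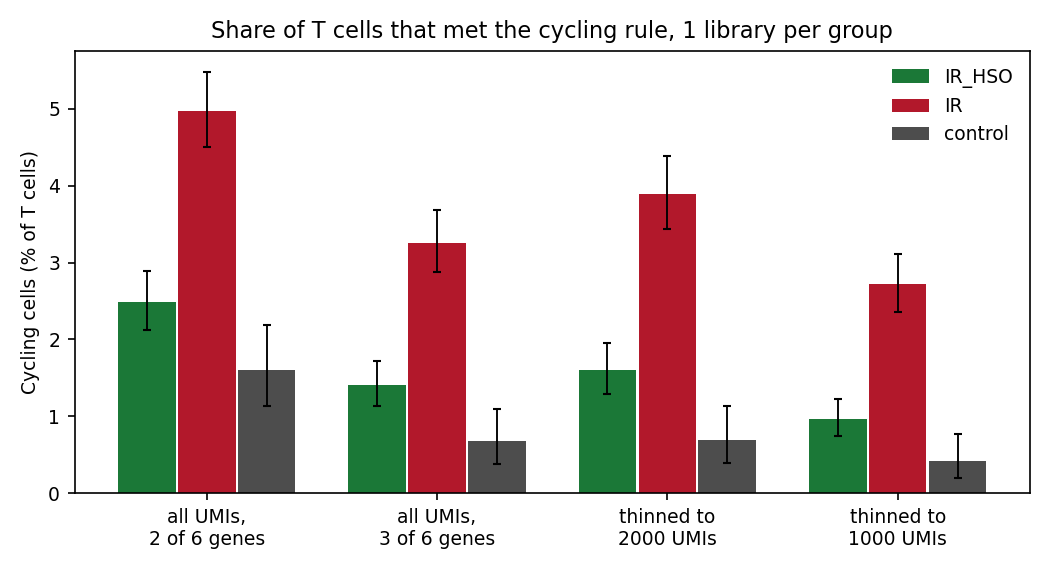
Share of T cells that met the cycling rule (bars, % of T cells) in IR_HSO, IR and control, with exact 95% binomial intervals (lines) and 1 library per group. The bar of IR is the highest at each setting, 4.97% with all UMIs and 3.89% when thinned to 2000 UMIs.

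Most control members lay at the edge of the rule. Exactly 2 of the 6 genes were found in 71 of 164 members in IR_HSO, 133 of 386 in IR and 22 of 38 in control, and all 6 in 34, 109 and 5. Just outside the rule, 627, 850 and 196 T cells held exactly 1 of the genes. Cells with at least 3 of the genes made up 1.41% of T cells in IR_HSO, 3.26% in IR and 0.673% in control, and IR was 4.84 times control (2.92 to 8.60).

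**Figure D2:**
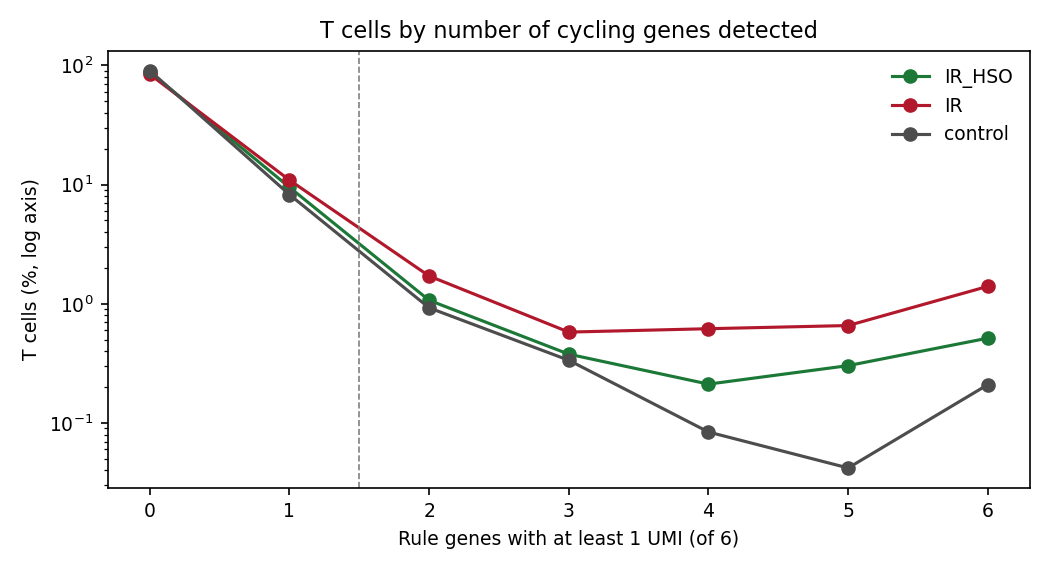
T cells by the number of the 6 rule genes with a UMI (x axis) as a percentage of all T cells of the library (y axis, log scale). The lines of IR_HSO, IR and control lie close at 0 and 1 gene. IR parts from the others at 2 genes, where 1.07%, 1.71% and 0.925% of T cells fall. IR_HSO and control lie close up to 3 genes (0.378% and 0.336%) and part at 4 (0.212% and 0.0841%). At 6 genes the shares are 0.515%, 1.40% and 0.210%.

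Genes of S phase and of G2 and M phase that were not part of the rule marked how far the cells had gone. The 40 genes of DNA replication, such as Tyms (thymidylate synthase) and Rrm2 (ribonucleotide reductase), summed to 4649 CPM in IR_HSO members, 6334 in IR members and 2902 in control members, against 768, 979 and 716 CPM in other T cells. The 52 genes of G2 and M phase, such as Hmmr and Plk1, summed to 4893, 6346 and 3370 CPM, against 727, 713 and 877 CPM. The ratio of the first sum to the second was 0.950 in IR_HSO, 0.998 in IR and 0.861 in control.

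The libraries were compared at each number of rule genes. Members with exactly 2 rule genes had an S phase sum of 2483 CPM in IR_HSO, 4651 in IR and 1022 in control. In control this was near the 732 CPM of T cells with 1 rule gene, which lay outside. Members with 3 or 4 rule genes had 5730, 8213 and 3622 CPM, and those with 5 or 6 had 5895, 6400 and 6452 CPM, from 54, 160 and 6 cells. In IR the S phase sum was thus highest at 3 or 4 rule genes. The G2 and M phase sum was 1057, 1444 and 1224 CPM at 2 rule genes, 3337, 3860 and 3603 CPM at 3 or 4, and 9195, 10492 and 8188 CPM at 5 or 6. In IR the ratio of the S to the G2 and M sum was 3.22 at 2 rule genes, 2.13 at 3 or 4 and 0.610 at 5 or 6. In IR_HSO it was 2.35, 1.72 and 0.641, and in control 0.835, 1.01 and 0.788.

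**Figure D3:**
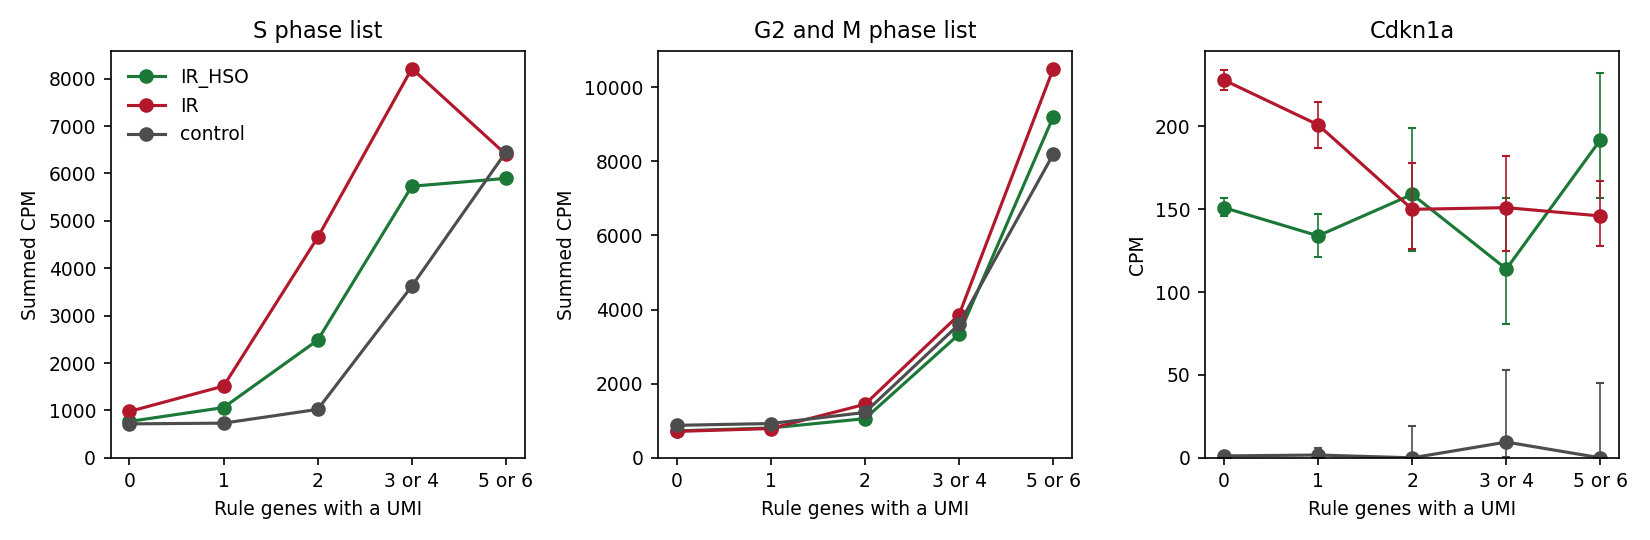
Summed CPM of the S phase list (left) and the G2 and M phase list (middle), and CPM of Cdkn1a with exact 95% Poisson intervals (right), in T cells grouped by the number of rule genes with a UMI, for IR_HSO, IR and control. The S phase sums at 2 rule genes are 2483, 4651 and 1022 CPM and come together at 5 or 6 genes, while Cdkn1a is at 146 CPM or more in the irradiated libraries at 5 or 6 genes and at 0 in control.

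For the comparisons of gene levels, UMIs were summed over the members of a library and scaled to CPM. A gene was called higher or lower at a 1.5-fold difference, and genes with a mean of at least 20 CPM over the 3 libraries were counted. The comparisons of IR with control and of IR_HSO with IR share the IR library. Between IR and control members, 1286 of 6278 genes were at least 1.5-fold higher (20.5%) and 574 were lower (9.14%), and the median log2 ratio of all genes was 0.10. With ratios centred on that median the counts were 1047 and 796. With CPM taken without mitochondrial, ribosomal, immunoglobulin, haemoglobin and pancreatic genes they were 1346 and 1033.

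p53 target genes were higher in IR than in control members. Of 24 listed genes 18 passed the limit on low levels, and 13 were higher and 1 was lower, with a median log2 ratio of 1.10. Cdkn1a (ENSMUSG00000023067) had 161 CPM in IR_HSO, 148 in IR and 2.63 in control members, from 221, 467 and 1 UMIs. The ratio of IR to control was 56.4 (interval 10.1 to 2234). Phlda3, an inhibitor of Akt signalling, had 79.6, 79.2 and 0 CPM, so IR was at least 10.0-fold higher than the 3 counts that a 0 allows in control. The mitochondrial pore protein Bax had 392 CPM in IR_HSO, 391 in IR and 153 in control, and the BH3-only death gene Bbc3 (PUMA) had 59.9, 43.9 and 7.89 CPM. The RNA-binding protein gene Zmat3 had 73.0, 48.3 and 7.89 CPM, a ratio of IR to control of 6.12 (2.06 to 30). Pmaip1 (NOXA) was the lower one, with 21.2, 12.7 and 36.8 CPM. Without the members rich in MHC class II its ratio of IR to control was 0.856 (0.338 to 2.78), short of the fold used here. Among other T cells 14 of 17 measured p53 targets were higher in IR, where 9.92% of all genes were higher and 2.08% lower.

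Within a library, the median p53 target was not higher in cycling than in other T cells, with median log2 ratios of -0.20 in IR_HSO, -0.50 in IR and -0.15 in control. In IR, cycling T cells had 0.650 times the Cdkn1a level of other T cells (interval 0.591 to 0.715), 148 against 228 CPM. None of 18 p53 targets was higher and 7 were lower, beside 13.5% and 8.18% of all genes. In IR_HSO the levels were 161 against 151 CPM, a ratio of 1.07 (0.925 to 1.22), and 1 of 18 targets was higher and 3 lower, beside 12.9% and 9.18% of all genes. In control 3 were higher and 3 lower, beside 20.2% and 13.0% of all genes. Rps27l was higher in cycling cells by 1.78 times in IR_HSO (1.59 to 1.98) and 2.48 times in control (1.93 to 3.16), against 1.21 times in IR. Pmaip1 was 3.25 times as high in control (1.73 to 5.66). After thinning to 2000 UMIs, 21.6% of IR_HSO members had a Cdkn1a UMI (15.5 to 28.7), 20.3% of IR members (16.4 to 24.8) and 1 of 38 control members. In other T cells the shares were 21.2%, 29.0% and 0.145%, and in B cells 7.14%, 7.78% and 0.391%. Cdkn1a was also found in cells with 5 or 6 rule genes, at 192 CPM in IR_HSO (157 to 232) and 146 CPM in IR (128 to 167). Among T cells with a Cdkn1a UMI at 2000 UMIs, 1.94% were cycling in IR_HSO (1.25 to 2.87) and 2.98% in IR (2.26 to 3.86). Without one the shares were 1.51% (1.18 to 1.9) and 4.25% (3.7 to 4.86), and the intervals within each library overlap. With all UMIs the shares were 3.67% with and 1.95% without one in IR_HSO, and 5.43% and 4.68% in IR. The direction in IR thus turned between these settings.

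The genes of the cycle itself were higher in IR than in control members, beside the larger share of control members at the edge of the rule. Of 39 S phase genes measured, 36 were higher and 0 lower (median log2 ratio 1.15), and of 51 genes of G2 and M phase 44 were higher and 0 lower (median 1.08). Among members with at least 5 rule genes the S phase median was -0.02. Without the limit on Cd79a and Cd79b the G2 and M median was -0.01. Tyms had 166 CPM in IR_HSO, 235 in IR and 63.1 in control. Hmmr, a microtubule-binding protein of the spindle, had 97.8, 144 and 39.5 CPM. Since the rule used genes of the same processes, these counts describe the members and support nothing further.

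Genes of the G1 phase and of DNA repair were also higher in IR than in control with all members. Of 22 G1 genes 16 were higher and 2 lower in IR than in control (median 0.84), beside 20.5% and 9.14% of all genes. Cdk6, a kinase that starts G1 with D-type cyclins, had 135, 112 and 28.9 CPM in IR_HSO, IR and control members, and in other T cells 171, 152 and 23.3 CPM. Ccnd1 (cyclin D1) had 147 CPM in control and was at 0 in both irradiated libraries, and all of its control UMIs came from the 3 members rich in MHC class II. Of 28 genes of DNA damage sensing and repair 16 were higher and 0 lower (median 0.81), against 1 of 16 in other T cells. Among members with at least 5 rule genes the medians were 0.14 for G1 and 0.03 for repair. Chek1, the checkpoint kinase of replication stress, had 41.6, 60.1 and 18.4 CPM, and the helicase gene Blm had 42.3, 50.9 and 13.2 CPM. In nucleotide synthesis 12 of 17 genes were higher and 1 was lower (median 0.81). That median was -0.08 among members with at least 5 rule genes and -0.07 without the limit on Cd79a and Cd79b.

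Survival genes had mixed directions. Bcl2, which blocks apoptosis at mitochondria, had 769 CPM in IR_HSO, 752 in IR and 182 in control members, a ratio of IR to control of 4.14 (3.26 to 5.34). Other T cells had 1371, 1312 and 253 CPM. Cycling cells had 0.561 times the level of other T cells in IR_HSO, 0.573 times in IR and 0.717 times in control (0.556 to 0.910). Its relative Bcl2a1b was at 83.2, 63.0 and 160 CPM. Of 9 anti-apoptotic genes 2 were higher and 2 lower in IR than in control, and of 10 pro-apoptotic genes 3 were higher and 1 lower. Among all genes 20.5% were higher and 9.14% lower, so these small counts do not set either list apart. Interferon-response genes were higher in 13 of 28 and lower in 2, with Isg15 at 99.3, 106 and 44.7 CPM in IR_HSO, IR and control.

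The genes with the largest differences between IR and control were partly those of NK receptors. Ncr1, Klrb1c, Klra4 and Klra7 had 70.3 to 100 CPM in IR and 0 in control, at least 8.90-fold to 12.7-fold higher in IR than 3 counts in control. Klra genes are near-identical copies of one another, so the split between them is uncertain. Without the NK-gene-positive members Klra4 had 5.59 CPM in IR_HSO, 8.55 in IR and 0 in control, and Klra7 4.47, 19.1 and 0 CPM. Of 15 cytotoxicity genes 14 were higher in IR members (median log2 ratio 1.76), beside 20.5% of all genes. In other T cells 12 of 15 were higher and 0 lower (median 1.28), beside 9.92% of all genes higher. Gzma (granzyme A) had 563 CPM in IR_HSO, 744 in IR and 121 in control members. Without the NK-gene-positive members the list median in members was 0.22, and Gzma had 66.0, 99.1 and 121 CPM. Klrk1 (NKG2D) had 121, 148 and 5.26 CPM with all members, and 15.7, 29.2 and 5.26 CPM without them.

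Igfbp4, a binding protein of insulin-like growth factors found in naive T cells of the mouse, was higher in IR with and without those cells. It had 235 CPM in IR_HSO, 541 in IR and 31.6 in control members, from 322, 1702 and 12 UMIs. The ratio of IR to control was 17.1 (9.79 to 33.2), and 22.4 without NK-gene-positive members. Other T cells had 283, 432 and 164 CPM, a ratio of 2.63. In control 4 members held its UMIs and 1 of them 50%. Atp1b1, a subunit of the sodium pump, had 75.9, 99.2 and 7.89 CPM, a ratio of 12.6 (4.26 to 61.3), against 1.23 in other T cells. Its 3 control UMIs came from 3 cells.

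Several genes of effector and memory T cells were lower in IR than in control members, while the list as a whole was mixed. Of 19 genes 6 were higher and 7 lower (median -0.33), beside 20.5% and 9.14% of all genes. In other T cells 14 of 19 were higher and 0 lower, beside 9.92% and 2.08% of all genes. Over 14 alternatives the median in members lay between -0.84, without NK-gene-positive members, and 0.40, with at least 5 rule genes, so its direction turned with the choice of members. Itgb1, an integrin of memory T cells, had 172 CPM in IR_HSO, 134 in IR and 524 in control members, a ratio of IR to control of 0.255 (0.215 to 0.303). Other T cells had 175, 143 and 102 CPM. S100a4 had 124, 122 and 395 CPM in members and 58.4, 79.7 and 39.8 CPM in other T cells. S100a6 had 397, 233 and 539 CPM in members, and the integrin Itga4 405, 241 and 500 CPM. Dapl1, a gene of naive mouse T cells, had 38.7, 83 and 358 CPM in members, and 12.9, 35.9 and 333 CPM in other T cells. Gm2a, a lysosomal lipid-binding protein, had 52.6, 50.2 and 216 CPM, and 113 CPM in control without the members rich in MHC class II, where the ratio of IR to control was 0.433 (0.302 to 0.636) in place of 0.233. The Rab GTPase-activating protein gene Tbc1d4 had 81, 42.6 and 171 CPM. H2-Aa, H2-Eb1 and H2-Ab1 had 626 to 831 CPM in control with all members and 29.9 to 65.7 CPM without the 3 members rich in MHC class II. Marcks was 0.201 times as high in IR as in control with all members, and 1.56 times (0.639 to 4.95) without the members rich in MHC class II.

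The state of cycling cells relative to the other T cells of their own library differed accordingly. In control 14 of 19 effector and memory genes were at least 1.5-fold higher in cycling than in other T cells and 1 was lower (median log2 ratio 1.09), beside the same 20.2% and 13.0% of all genes. In IR_HSO 3 were higher and 1 lower (median -0.11), beside 12.9% and 9.18% of all genes. In IR 1 was higher and 5 lower (median -0.21), beside 13.5% and 8.18% of all genes. S100a4 was 9.91 times as high in cycling as in other T cells in control (8.18 to 12), 2.13 times in IR_HSO (1.80 to 2.49) and 1.53 times in IR (1.37 to 1.71). Naive and homing genes were lower in 11 of 15 in control (median -1.14), in 4 of 15 in IR_HSO (median -0.28) and in 4 of 15 in IR (median -0.26). The shares of all genes that were lower are the 13.0%, 9.18% and 8.18% given above. Lef1, a transcription factor of naive T cells, was 0.383 times as high in control (0.308 to 0.472), 0.755 times in IR_HSO and 0.817 times in IR. Whether these differences between libraries differ from 0 across mice was not tested, with 1 library per group.

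Genes that mark T cell subsets were compared at one depth. After thinning to 2000 UMIs, Cd4 was found in 24.7% of members in IR_HSO (18.3 to 32.1), 25.4% in IR (21.1 to 30.1) and 34.2% in control (19.6 to 51.4), and these intervals overlap. Cd8a or Cd8b1 was found in 13.0% (8.21 to 19.1), 10.2% (7.29 to 13.7) and 31.6% (17.5 to 48.7). The Cd8 shares of other T cells were 8.55%, 8.20% and 34.1%, and in B cells 3.17%, 0.556% and 2.20%. Trdc, the constant region of the delta chain, was found in 8.64%, 5.35% and 0 of 38 members, which allows up to 7.89% of control cells with a UMI at that depth and limits no share of cells that express Trdc. Trdc was found in 8.32%, 13.2% and 21.2% of NK cells, so it does not mark gamma delta T cells alone.

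Within the subsets, the share that was cycling was lower in IR_HSO than in IR for Cd4, and for Cd8 when all UMIs were used. At 2000 UMIs, 1.36% of T cells with Cd4 and no Foxp3 were cycling in IR_HSO (0.824 to 2.12), 4.50% in IR (3.51 to 5.65) and 0.560% in control (0.116 to 1.63). Of T cells with Cd8a or Cd8b1, 2.95% were cycling in IR_HSO (1.66 to 4.81), 5.0% in IR (3.32 to 7.19) and 0.773% in control (0.284 to 1.68). The Cd8 intervals of IR_HSO and IR overlap at this depth, as do those for Trdc, at 2.45% and 2.81%. Of T cells with Foxp3, 0.438% were cycling in IR_HSO (4 of 913), 1.09% in IR (5 of 457) and 0 of 84 in control. The intervals of IR_HSO (0.119 to 1.12) and IR (0.356 to 2.53) overlap. With all UMIs, the Cd8 shares were 4.35% in IR_HSO (3.05 to 6) and 8.52% in IR (6.74 to 10.6), and these intervals do not overlap. Those for Cd4 without Foxp3 were 2.92% (2.23 to 3.75) and 7.1% (6.14 to 8.15). For Trdc they were 4.59% (3.02 to 6.65) and 7.08% (5.35 to 9.15), which overlap. The Foxp3 shares were 2.7% in IR_HSO (1.91 to 3.68), 3.43% in IR (2.27 to 4.95) and 2.84% in control (0.778 to 7.1). These intervals overlap as well.

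**Figure D4:**
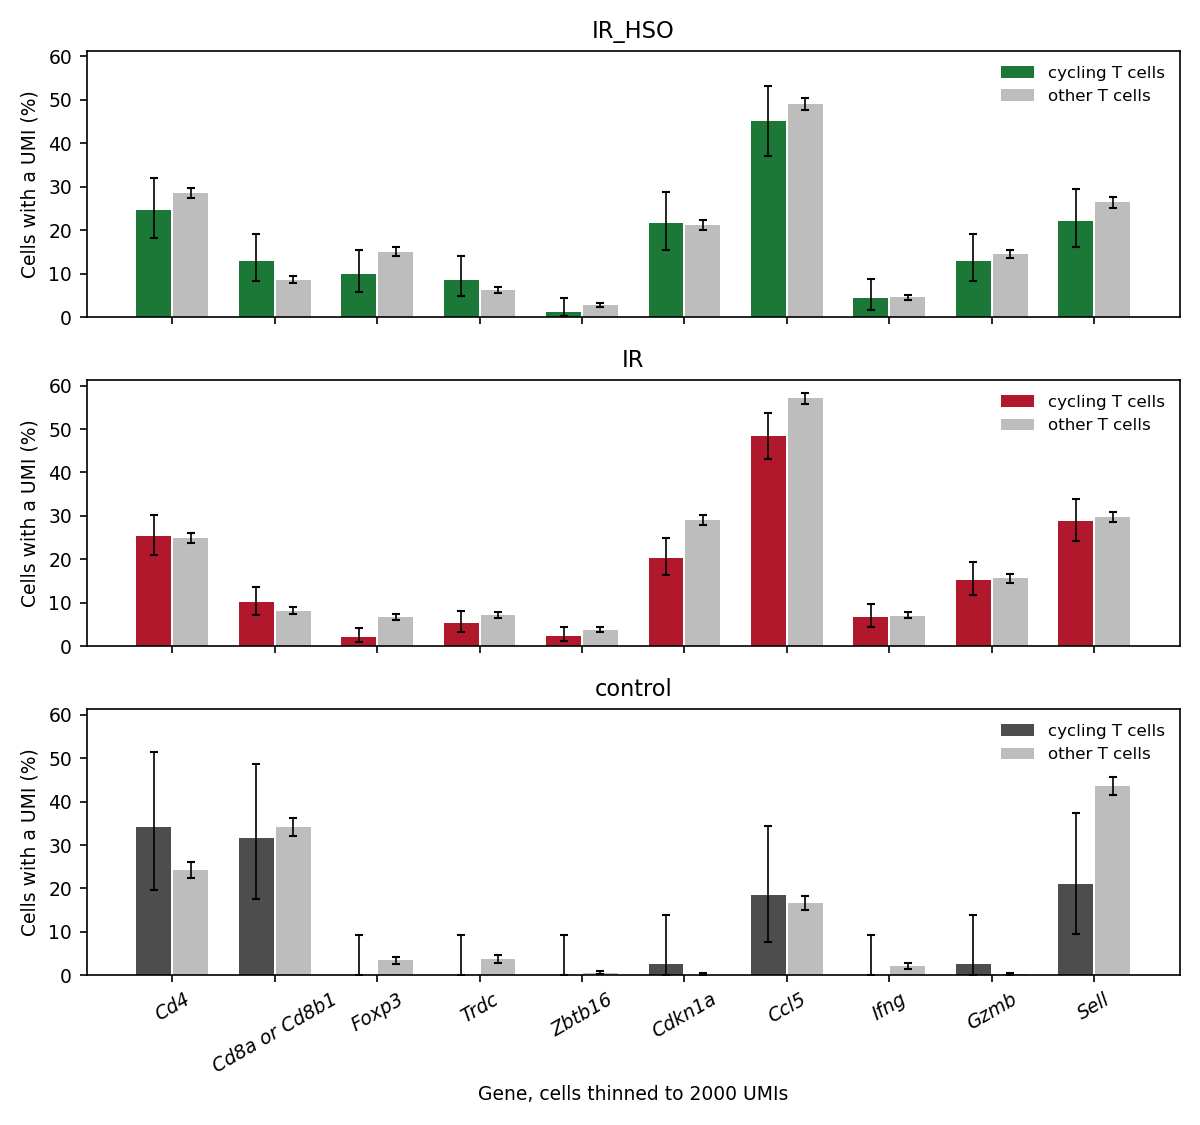
Percentage of cells with a UMI of each gene (bars) after thinning to 2000 UMIs, in cycling T cells (left bar of each pair) and other T cells (right bar) of IR_HSO, IR and control, with exact 95% binomial intervals. Foxp3 stands at 9.88% of cycling cells in IR_HSO, 2.14% in IR and 0 of 38 in control, and Cdkn1a at 21.6%, 20.3% and 2.63%.

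Between IR_HSO and IR members, 378 of 6278 genes were at least 1.5-fold higher (6.02%) and 388 were lower (6.18%), with a median log2 ratio of -0.04. With CPM taken without mitochondrial, ribosomal, immunoglobulin, haemoglobin and pancreatic genes the counts were 743 and 342.

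**Figure D5:**
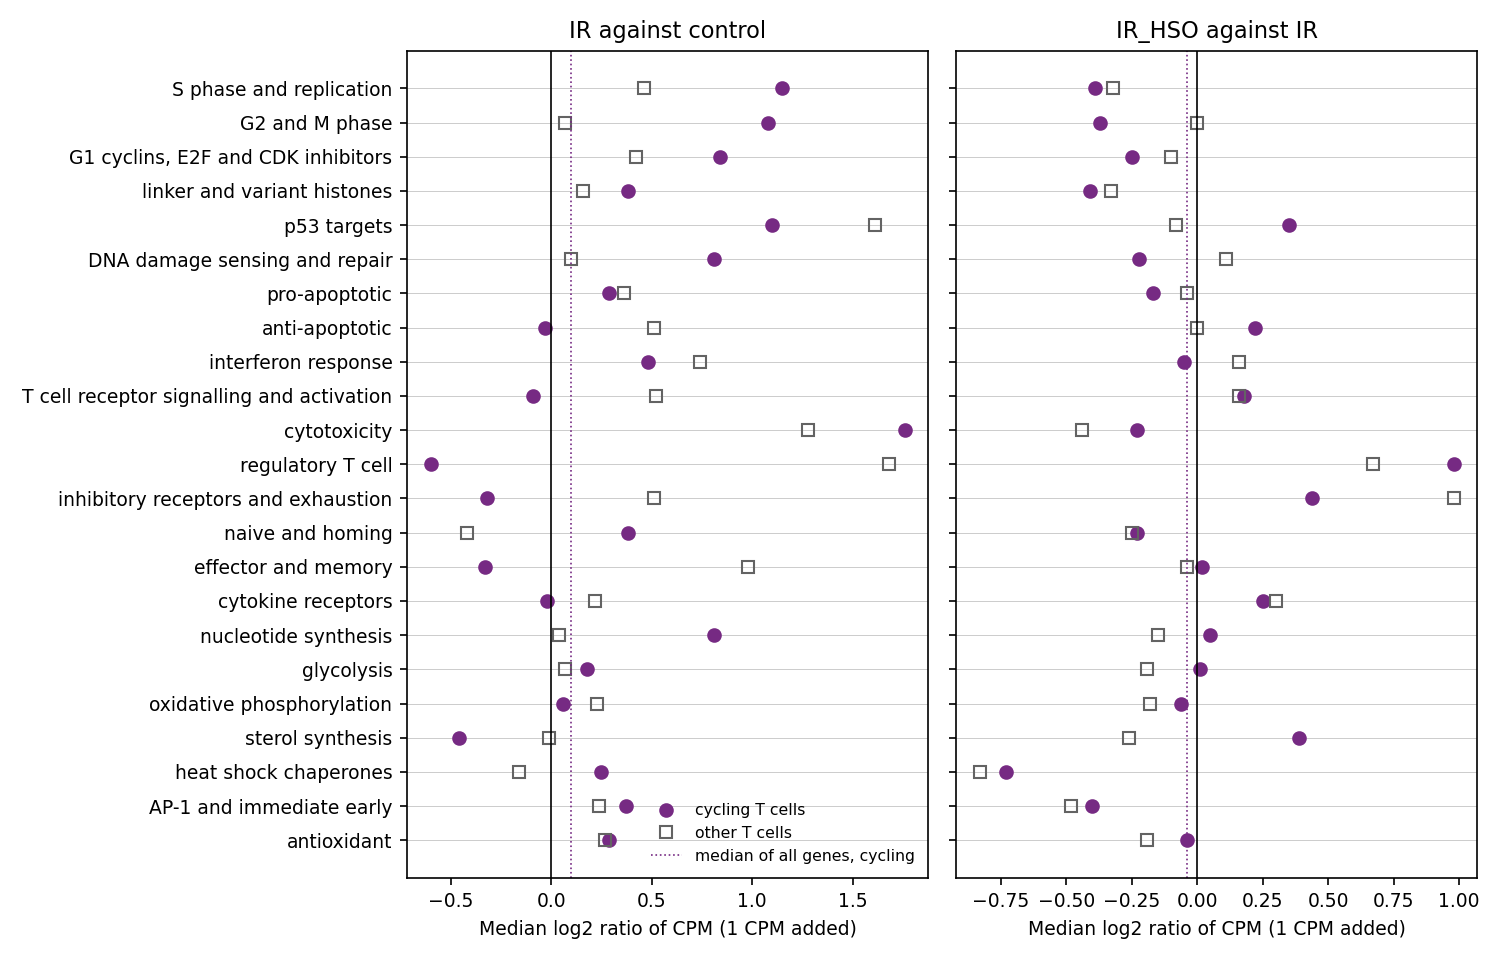
Median log2 ratio of CPM (x axis, 1 CPM added) over each gene list in cycling T cells (filled circles) and other T cells (open squares), for IR against control (left) and IR_HSO against IR (right). The dotted line is the median of all genes in cycling T cells. Regulatory T cell genes lie at -0.60 in cycling cells and at 1.68 in other T cells for IR against control, and heat shock chaperones at -0.73 and -0.83 for IR_HSO against IR.

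Regulatory T cell genes were higher in IR_HSO than in IR members, and also in other T cells. Of 10 measured genes 7 were higher and 0 lower in members (median log2 ratio 0.98), beside 6.02% and 6.18% of all genes. In other T cells 6 of 11 were higher and 0 lower (median 0.67), beside 3.37% and 3.1% of all genes. Foxp3 (ENSMUSG00000039521), the transcription factor that defines these cells, had 76.6 CPM in IR_HSO, 14.0 in IR and 26.3 in control members, a ratio of IR_HSO to IR of 5.48 (3.82 to 7.98), and 9.09 (5.65 to 15.2) without NK-gene-positive members. In other T cells it had 111, 48.9 and 23.9 CPM, a ratio of 2.27 (2.12 to 2.44). After thinning, 9.88% of IR_HSO members had a Foxp3 UMI (5.75 to 15.5), 2.14% of IR members (0.928 to 4.17) and 0 of 38 control members, which allows up to 7.89% of cells with a UMI at that depth. With all UMIs, 38 of 164, 27 of 386 and 4 of 38 members had one, so the 0 in control is a matter of thinning and limits no share of cells that express Foxp3. For other T cells the thinned shares were 15.1%, 6.70% and 3.43%, and in B cells 0 of 126, 0 of 180 and 0.0902%. Foxp3 was lower in cycling than in other T cells of the irradiated libraries, at 0.690 times in IR_HSO (0.562 to 0.839) and 0.286 times in IR (0.207 to 0.387). In control it was 1.1 times as high in cycling cells, with an interval that includes 1 (0.522 to 2.06). The inhibitory receptor Ctla4 had 128, 38.8 and 63.1 CPM in members, a ratio of IR_HSO to IR of 3.31, and 5.65 (4.15 to 7.77) without NK-gene-positive members. The transcription factor Ikzf2 (Helios) had 407, 193 and 303 CPM, and the co-receptor Nrp1 49.6, 17.5 and 36.8 CPM.

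Of 22 genes of T cell receptor signalling and activation 4 were higher and 0 lower in IR_HSO than in IR (median 0.18, and -0.14 with at least 5 rule genes). Beside this and the other lists of this paragraph, 6.02% of all genes were higher and 6.18% lower. Tnfrsf4 (OX40), also on the regulatory list, had 207 CPM in IR_HSO, 66.1 in IR and 103 in control members, a ratio of IR_HSO to IR of 3.13 (2.61 to 3.77), and Tnfrsf9 (4-1BB) had 107, 39.7 and 55.3 CPM. Without NK-gene-positive members the ratios were 5.02 (3.97 to 6.37) for Tnfrsf4 and 6.24 (4.36 to 9.10) for Tnfrsf9. Both were also higher in other T cells, by 1.94 and 1.5 times. Batf, an AP-1 factor of effector and regulatory T cells, had 87.6, 42.3 and 92.1 CPM. Of 6 inhibitory receptor and exhaustion genes 3 were higher, and Tox had 176, 67.7 and 105 CPM. Of 15 cytokine receptor genes 5 were higher and 0 lower, and Il7r, which carries the survival signal of IL-7, had 543, 361 and 166 CPM.

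For IR against control the regulatory list ran against that of other T cells. Of its 10 genes 2 were higher and 5 lower in cycling cells (median -0.60), beside 20.5% and 9.14% of all genes. In other T cells 11 of 11 were higher (median 1.68), beside 9.92% of all genes. Tnfrsf18 (GITR) was higher in cycling and in other T cells, at 246, 163 and 57.9 CPM in IR_HSO, IR and control members. The median was 0.10 without the limit on Cd79a and Cd79b, and 0.81 among members with at least 5 rule genes, so the direction in cycling cells turned with the choice of members. Of the 10 Foxp3 UMIs in control members, 1 cell held 60.0%.

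Most genes of the cycle lay within the 1.5-fold limits between IR_HSO and IR members, and those outside were lower in IR_HSO. Of 39 S phase genes 0 were higher and 10 lower (median -0.39), and of 51 genes of G2 and M phase 0 were higher and 7 lower (median -0.37), beside 6.18% of all genes lower. The S phase median was -0.03 with at least 5 rule genes. Rrm2 had 99.3 CPM in IR_HSO, 192 in IR and 73.7 in control, a ratio of IR_HSO to IR of 0.517 (0.426 to 0.624). The replication ligase Lig1 had 162, 262 and 113 CPM. Prc1, which organises the spindle midzone, had 155, 258 and 92.1 CPM, and the mitotic kinase Plk1 had 36.5, 63.9 and 39.5 CPM. Tuba1b, an alpha tubulin, had 340, 877 and 213 CPM in members, a ratio of 0.388 (0.351 to 0.428), and in other T cells 38.8, 107 and 97.9 CPM, a ratio of 0.362. Of 28 repair genes 0 were higher and 2 lower, near the 6.18% of all genes that were lower.

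Among p53 targets 2 of 18 were higher and 0 lower in IR_HSO than in IR members (median 0.35), beside 6.02% and 6.18% of all genes. In other T cells 1 of 17 was higher and 1 lower (median -0.08), where 3.37% of all genes were higher and 3.1% lower. The level of Cdkn1a was 1.09 times, of Mdm2 0.999 times and of Bax 1.0 times that in IR. Zmat3 was 1.51 times as high (1.16 to 1.96). Of 15 cytotoxicity genes 4 were lower, among them perforin (Prf1) at 39.4, 76.3 and 15.8 CPM and the cytokine Ifng at 21.9, 46.4 and 5.26 CPM. Without NK-gene-positive members Prf1 had 12.3, 16.6 and 15.8 CPM and Ifng 12.3, 27.7 and 5.26 CPM.

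Heat shock chaperones were lower in IR_HSO than in IR members, and also in other T cells. Of 12 genes 10 were lower (median -0.73), beside 6.18% of all genes. In other T cells 10 of 12 were lower (median -0.83), beside 3.1% of all genes. Hsph1 had 49.6 CPM in IR_HSO, 159 in IR and 118 in control members, a ratio of IR_HSO to IR of 0.312 (0.239 to 0.403), and in other T cells 36.5, 140 and 164 CPM. Hsp90aa1 had 485, 1047 and 708 CPM, and Dnaja1 182, 408 and 400 CPM. Hspa1a, whose near-identical copy Hspa1b can take some of its reads, had 58.4, 149 and 89.5 CPM. Of 14 AP-1 and immediate early genes 5 were lower in members and 6 of 16 in other T cells, beside the same 6.18% and 3.1%. Fos had 92.0, 208 and 121 CPM in members and 155, 361 and 343 CPM in other T cells. The co-chaperone gene Stip1 had 66.4, 149 and 142 CPM, and outside these groups Samd1 had 48.2, 119 and 60.5 CPM and Ndufab1 57.7, 132 and 84.2 CPM.

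Several of the largest differences between IR_HSO and IR were common to T cells in and out of cycle and to B cells. Lars2, a mitochondrial leucyl-tRNA synthetase, had 553 CPM in IR_HSO, 188 in IR and 563 in control members, a ratio of IR_HSO to IR of 2.95 (2.65 to 3.29). In other T cells it had 696, 240 and 553 CPM, and in B cells 441, 139 and 441 CPM. The ATP synthase genes Atp5g2 and Atp5l were 5.09 and 3.6 times as high in IR_HSO as in IR members, and 3.89 and 3.03 times in other T cells. Gstp1 was 3.91 and 3.89 times, Wdr89 3.56 and 3.62 times, and Ttn 5.15 and 3.30 times as high. Near-identical copies of Gstp1 and Wdr89 exist in the mouse genome, so how reads were assigned to them is uncertain.

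The replication-dependent histone gene H2ac24 was far higher in cycling than in other T cells. It had 2470 CPM in IR_HSO, 406 in IR and 781 in control members, from 3384, 1277 and 297 UMIs, and 49.8, 9.77 and 40.3 CPM in other T cells. The ratio of IR_HSO to IR was 6.08 (5.70 to 6.49) in members and 5.10 in other T cells. It was found in 103 of 164, 192 of 386 and 13 of 38 members, and 1 member held 4.96%, 1.96% and 32.3% of its UMIs. H3c7 had 145, 35.3 and 57.9 CPM, a ratio of IR_HSO to IR of 4.10, and 2.39 (1.79 to 3.19) without NK-gene-positive members. Of 11 linker and variant histones 0 were higher and 1 lower in IR_HSO than in IR members, with H1f4 at 377, 539 and 481 CPM, and at 294, 593 and 481 CPM without NK-gene-positive members. Histone genes form families of near-identical copies, so how reads were assigned to them is uncertain.

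The medians of sterol synthesis genes had opposite signs in cycling and other T cells, which was not tested. Of 8 genes 3 were higher and 0 lower in IR_HSO than in IR members (median 0.39), beside 6.02% and 6.18% of all genes. Of 6 in other T cells 0 were higher and 1 lower (median -0.26), beside 3.37% and 3.1% of all genes. Hmgcs1, the synthase before the rate-limiting step, had 50.4 CPM in IR_HSO, 32.1 in IR and 50 in control members, a ratio of IR_HSO to IR of 1.57 (1.14 to 2.15), against 0.867 (0.776 to 0.968) in other T cells. Fdps had 40.1, 25.8 and 23.7 CPM, a ratio of 1.56 (1.09 to 2.22), against 0.656 in other T cells. For IR against control 0 of the 8 were higher and 4 lower in members, beside 20.5% and 9.14% of all genes. Msmo1 had 21.9, 14.6 and 44.7 CPM. Glycolysis, oxidative phosphorylation and antioxidant genes differed little between IR_HSO and IR, with 0, 0 and 0 genes higher and 0, 1 and 0 lower of 13, 26 and 15.

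Between IR_HSO and control members, 1190 of 6278 genes were higher (19%) and 600 lower (9.56%). This comparison shares its libraries with the other 2. Of 39 S phase genes 21 were higher and 0 lower, of 18 p53 targets 14 were higher and 1 lower (median 1.29), and of 15 cytotoxicity genes 13 were higher. Of 10 regulatory T cell genes 6 were higher and 0 lower, and of 12 heat shock chaperones 0 were higher and 5 lower. Among other T cells 15% of genes were higher and 4.43% lower, 15 of 17 p53 targets were higher, and 10 of 12 heat shock chaperones were lower.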

How the data were processed

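The deposited values were raw UMI counts per gene and barcode for 3 libraries, and the file headers name Cell Ranger 7.0.1. The build was GRCm39 per the submitters' processing notes. The annotation release is not given in the sources used here. Total counts per library were 45636807 UMIs in IR_HSO, 50836313 in IR and 47298108 in control, over 12710, 13509 and 9520 barcodes, and the cell filter kept 10585, 12854 and 9070. The members, the gene lists and the comparisons were chosen with earlier results of these data known.

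UMIs were summed over members and scaled to CPM, and log2 ratios had 1 CPM added to both sides. Ratio intervals are exact conditional (Clopper-Pearson), shares exact binomial and levels exact Poisson, all at 95%. UMIs share amplification and cells share a library, so intervals cover counting error only. Cells were thinned without replacement with a fixed seed. B cells had at least 2 UMIs of Cd79a and Cd79b and none of CD3, and NK cells at least 2 of Ncr1 and Klrb1c and none of CD3 or Cd79. B cell levels and shares with a UMI, other than the cycling shares, are of B cells with no rule gene. Named genes were, at a mean of at least 50 CPM, the 10 per direction and comparison whose ratio interval lay farthest from 1, plus the 4 farthest per list and the 6 rule genes. Immunoglobulin, T cell receptor variable, mitochondrial, ribosomal, haemoglobin, pancreatic and Y-linked genes and unnamed models were left out. Bbc3, Mdm2, Pmaip1, Rps27l and the cell type markers fall outside this rule and were chosen after their values were seen. The subset genes were a list of their own. Doublets were scored with Scrublet (scanpy 1.11.5). Its automatic threshold called 1, 0 and 304 barcodes in IR_HSO, IR and control, so the highest scores at 0.8% per 1000 barcodes were left out as an alternative instead. The ratio and share code was tested on simulated counts. Promoter sequences are from RefSeq (GRCm38.p6), another build than that of the counts, and were matched by symbol. Python 3.11.15, numpy 2.4.6 and scipy 1.17.1 were used. Some results are not reported here.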

Additional observations from a re-analysis of the deposited data

Results flagged for a closer look

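The regulatory T cell list differed in direction between cycling and other T cells for IR against control. The median log2 ratio was -0.60 over 10 genes in cycling T cells, where 2 were higher and 5 lower, and 1.68 over 11 genes in other T cells, where 11 were higher. The difference itself was not tested, since there was 1 library per group, and the direction in cycling cells turned under 2 other choices of members.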

How the results depend on the processing

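With 1 library per group no replicate could be left out. No paired analysis was possible because each group has 1 library. Alternatives with no limit on Cd79, without NK-gene-positive members, with at least 5 rule genes, with at most 50 class II UMIs and with the highest Scrublet scores in place of the automatic calls were chosen after seeing the data. The cycling share was highest in IR, then IR_HSO, then control in all 9 alternatives. The shares in IR_HSO, IR and control were 1.41%, 3.26% and 0.673% with at least 3 rule genes, 1.60%, 3.89% and 0.696% at 2000 UMIs, and 0.966%, 2.72% and 0.422% at 1000 UMIs, lower since fewer UMIs or cells can meet the rule.

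For IR against control the share of genes higher, 20.5%, was 12.8% with no limit on Cd79. The share lower, 9.14%, was 14.1% with CPM without the abundant classes, 14.8% at a mean of at least 5 CPM and 19.1% with at least 5 rule genes. For IR_HSO against IR the share higher, 6.02%, was 10.1% with CPM without the abundant classes, 10.9% at 5 CPM and 10.1% without NK-gene-positive members. The share lower, 6.18%, was 9.71% at 5 CPM and 11.6% with at least 5 rule genes. Medians for IR against control that were past the 1.5-fold limit and turned were S phase (-0.02, at least 5 rule genes), G2 and M phase (-0.01, no Cd79 limit), regulatory T cell (0.10 and 0.81, no Cd79 limit and at least 5 rule genes) and nucleotide synthesis (-0.07 and -0.08, the same settings). Medians within that limit also changed sign for IR against control, among them effector and memory (-0.33, up to 0.40), inhibitory receptors (-0.32, up to 0.11), pro-apoptotic genes (0.29, down to -0.27), linker and variant histones (0.38, down to -0.08) and heat shock chaperones (0.25, down to -0.26). The cause was not tested, but at least 5 rule genes leaves 6 control members. Over 14 alternatives the p53 median lay between 0.87 and 1.52 for IR against control and between 0.12 and 0.44 for IR_HSO against IR. The regulatory median for IR_HSO against IR lay between 0.55 and 1.44, and that of heat shock chaperones between -0.93 and -0.64. The control values rest on 38 cells and 380064 UMIs, which limits IR against control.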
